A study of Mus musculus with 21 samples.

Results

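Border-associated macrophages are the resident macrophages of the perivascular spaces, meninges and choroid plexus, and they stand apart from microglia, the macrophages of the brain parenchyma. They are known for taking up blood-borne and interstitial material through scavenger and lectin receptors, and several of those receptors serve as their markers. Like microglia they carry CD11b, and they carry more CD45 than resting microglia, so RNA of their marker genes may be met in a sort on these proteins in either gate. The 8 markers described here are known marker genes that were looked up by symbol among the 45706 genes of the deposited table, and all 8 passed the filter on low counts. They are the endocytic receptors Mrc1, Cd163, Lyve1 and Stab1, the sialic acid receptor Siglec1, the folate receptor Folr2, the enzyme Cbr2 and the chemokine Pf4.

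RNA was measured by RNA-seq in 21 libraries, 3 in each of 7 groups, from adult male mice on the C57BL/6 background, with the cells of 2 mice pooled in each library. Sham controls were wild-type (WT) mice that had anesthesia and a craniotomy without impact, and their time of sampling after surgery is not given in the labels. Injured mice had controlled cortical impact (CCI) and were either WT or Fgg γ390–396A, a knock-in in which the fibrinogen γ-chain lacks the motif bound by the integrin CD11b/CD18 while clotting is kept. The mutation alters codons and not the presence of a transcript, so gene counts do not check the genotype labels, and no sham group of Fgg γ390–396A mice was analysed here. Microglia (CD45low CD11b+, 40000 cells per library) were sorted from a 1 mm block of tissue across the lesion in sham mice and in both genotypes at 1 d and 7 d post-CCI. Infiltrating myeloid cells (CD45hi CD11b+, 25000 cells per library) were sorted from both genotypes at 1 d post-CCI only. Each gate is therefore a mixed population defined by surface staining, and none was sorted on a border macrophage marker.

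Total counts were between 18896957 and 51875767 per library, of which ribosomal RNA genes took 43.0% to 58.6%. Levels below are in CPM, the count of a gene scaled to the size of its library after TMM normalization, with libraries given in the order of replicates 1, 2 and 3. Gene length was already divided out in the deposited values, so levels of different genes can be compared within a library. The gate labels were checked against lineage markers. All 12 microglial markers were called lower in infiltrating cells than in microglia at 1 d in both genotypes, and the microglial P2ry12 was at 21.1 to 108 CPM in infiltrating cells against 169 to 4021 CPM in the microglia gate. Of 12 monocyte markers, 11 were called higher in infiltrating cells of WT mice and 12 in those of Fgg γ390–396A mice, with 6 and 7 of 12 neutrophil markers also called higher.

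Mrc1 encodes the mannose receptor CD206 (chr2:14229392-14332057, plus strand, GRCm38, GENCODE M21). Cd163 encodes the scavenger receptor for hemoglobin bound to haptoglobin (chr6:124304656-124330527, plus), Lyve1 a hyaluronan receptor shared with lymphatic endothelium (chr7:110850607-110863239, minus) and Stab1 the scavenger receptor stabilin-1 (chr14:31139013-31168641, minus). Siglec1 encodes sialoadhesin, or CD169 (chr2:131069220-131086765, minus), Folr2 the folate receptor beta (chr7:101839988-101857194, minus), Cbr2 a carbonyl reductase (chr11:120729489-120732114, minus) and Pf4 the chemokine CXCL4, which is also stored in platelets (chr5:90772435-90773383, plus). All 8 are protein-coding genes and their values are sums over the whole gene. Exons of Stab1 overlap those of Nt5dc2 on the other strand, and exons of Folr2 overlap the antisense gene Gm10602. Over all libraries Nt5dc2 held 7386 counts and Gm10602 held 1005, and since the sources used here do not state the strand setting, reads from the shared bases cannot be told apart.

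RefSeq promoter windows (GRCm38.p6) were available for 6 of the 8 genes, with 2 start sites for Folr2. The 150 bases before the start are shown for the 2 endocytic receptors that differ most in level, Stab1 and Cd163, and for the other genes of highest level, Mrc1 and Pf4, so that their promoters can be set beside their levels. Capitals mark GAGGAA or its reverse complement TTCCTC, letters recognised by the macrophage factor PU.1, and TGCTGA or its reverse complement TCAGCA, the MAF half-site. Both strands were searched and the marked letters do not overlap.
Mrc1, chr2:14229264-14229413, plus strand: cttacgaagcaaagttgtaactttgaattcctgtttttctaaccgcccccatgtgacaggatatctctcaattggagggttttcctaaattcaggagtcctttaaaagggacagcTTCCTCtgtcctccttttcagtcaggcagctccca
Cd163, chr6:124304501-124304650, plus strand: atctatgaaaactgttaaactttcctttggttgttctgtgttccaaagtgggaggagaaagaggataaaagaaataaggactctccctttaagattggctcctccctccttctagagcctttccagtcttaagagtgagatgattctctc
Pf4, chr5:90772285-90772434, plus strand: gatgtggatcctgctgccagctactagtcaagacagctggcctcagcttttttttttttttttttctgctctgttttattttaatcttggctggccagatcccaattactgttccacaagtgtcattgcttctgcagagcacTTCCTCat
Stab1, chr14:31168642-31168791, minus strand: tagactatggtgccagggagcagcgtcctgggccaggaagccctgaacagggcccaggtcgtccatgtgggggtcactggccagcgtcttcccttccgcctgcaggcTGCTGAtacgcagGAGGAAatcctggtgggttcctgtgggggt
The PU.1 letters were found in 4 of the 7 windows of the markers and in 14.5% of 32851 promoter windows of that length. MAF half-site letters were found in 2 of 7 and in 10.1% of all windows. Of the windows not shown, that of Cbr2 held PU.1 letters and that of the second Folr2 start held MAF half-site letters. The median levels of these genes in microglia were 11 and 3.88 CPM. A match is a description of the letters and not of binding. The windows of Cd163 and of the first Folr2 start held neither.

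The order of the markers differed between the gates. In the 15 microglia libraries Stab1 had the highest median, 173.6 CPM (96.1 to 213.6), followed by Pf4 at 83.7 (1.5 to 161.8) and Mrc1 at 32.0 (2.07 to 78.0). Cbr2 came next at 11 (0.606 to 28.4), then Lyve1 at 5.95 (0.0319 to 24.1), Folr2 at 3.88 (0.446 to 19), Siglec1 at 2.87 (0.287 to 8.12) and Cd163 at 2.43 (0.0319 to 9.35). The ranges of all neighbours in this order overlapped. In the 6 libraries of infiltrating cells Pf4 came first, with a median of 1529 CPM (927 to 1825), ahead of Mrc1 at 84.2 (54.8 to 120) and Stab1 at 80.9 (64.5 to 191.5). Cbr2 followed at 19.8 (8.93 to 51.2), Lyve1 at 6.09 (2.26 to 37.8), Siglec1 at 5.81 (3.95 to 11.3), Folr2 at 5.61 (2.84 to 10.8) and Cd163 at 2.98 (0.968 to 9.23). Among neighbours, only the steps from Pf4 to Mrc1 and from Stab1 to Cbr2 were free of overlap there.

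**Figure D1:**
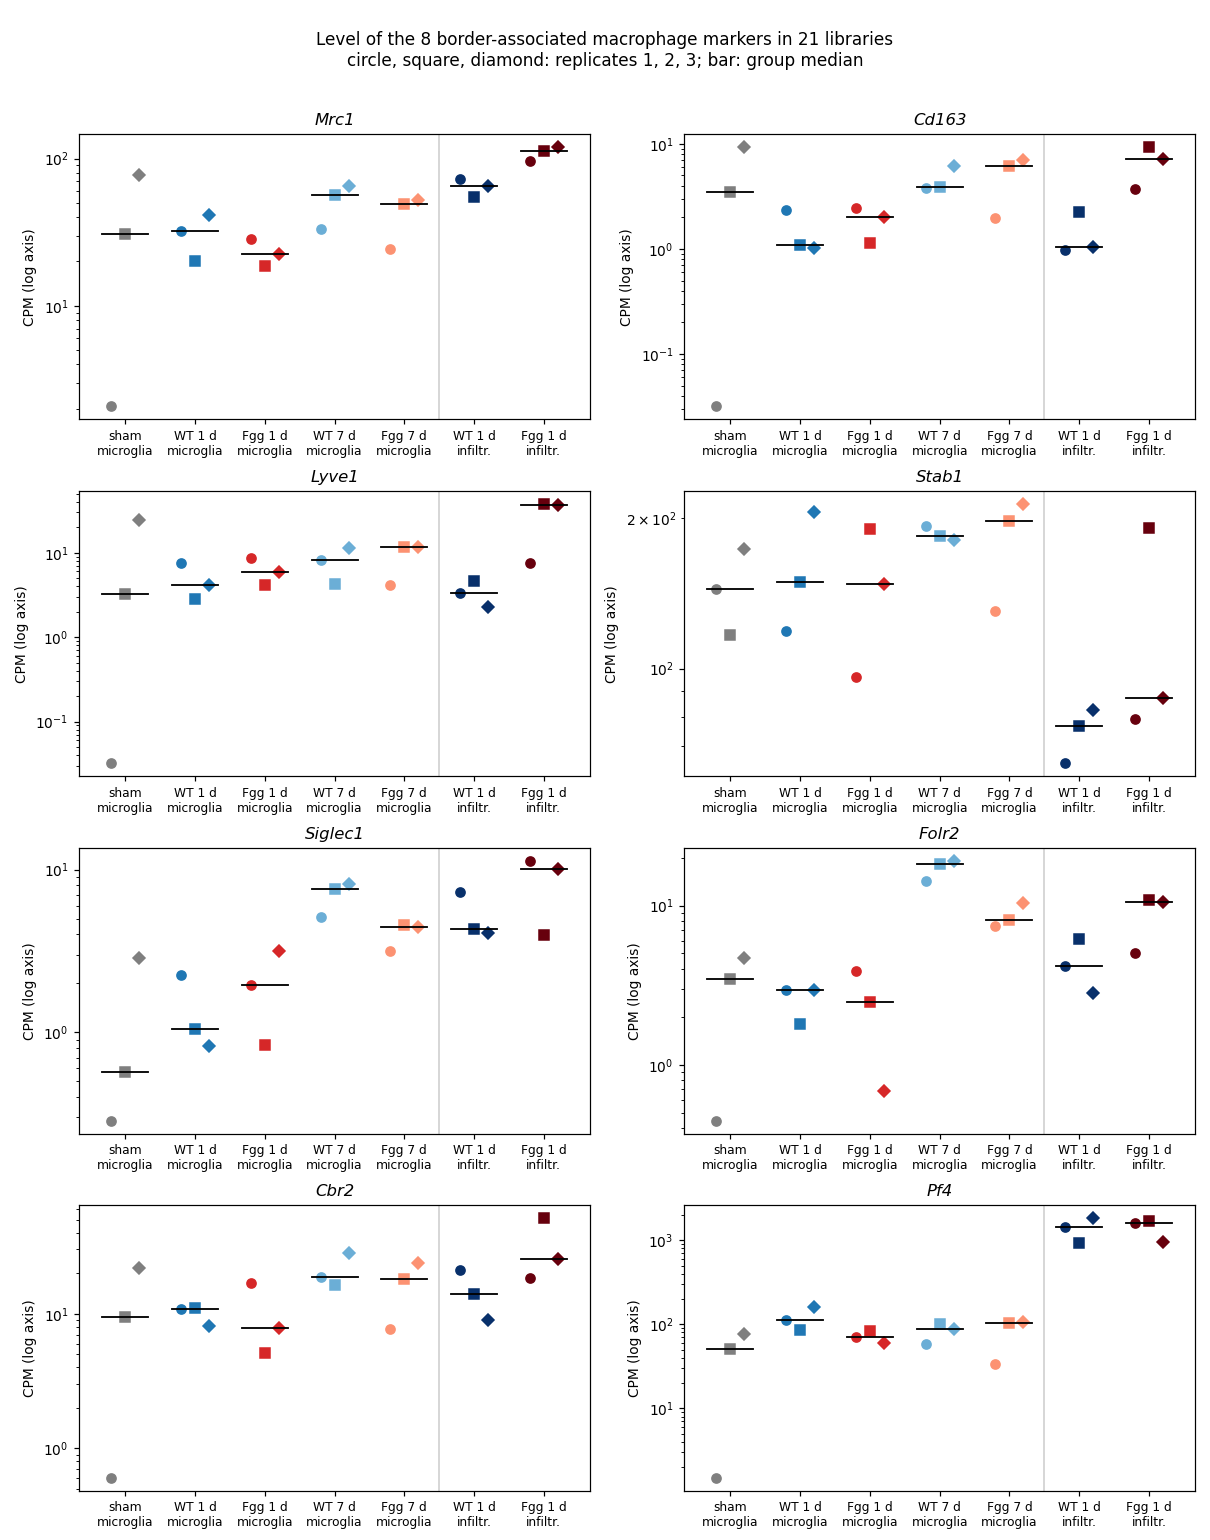
Level of each of the 8 markers in all 21 libraries, in CPM on a log axis; circles, squares and diamonds are replicates 1, 2 and 3 of a group and each bar is the group median. Sham replicate 1 lies far below the other sham libraries for Mrc1, Cd163, Lyve1, Cbr2 and Pf4 but not for Stab1, and Pf4 lies at 927 to 1825 CPM in infiltrating cells.

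**Figure D2:**
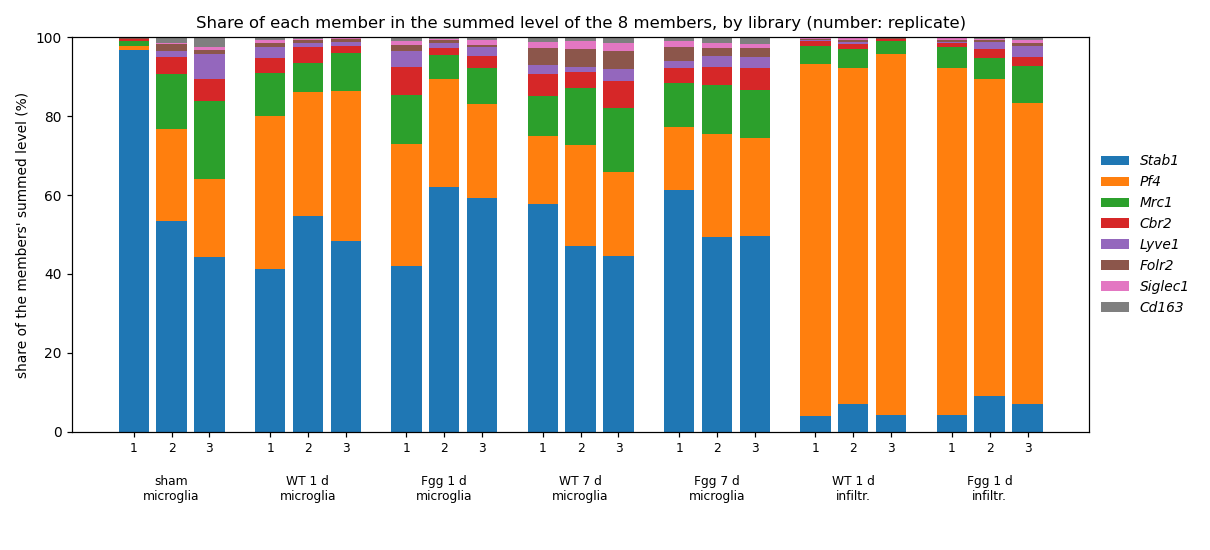
Share of each marker in the summed CPM of the 8 markers, in percent, as 1 stacked bar per library. Stab1 makes up 96.7% of the sum in sham replicate 1, and Pf4 makes up 76.3% to 91.6% in infiltrating cells.

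The sham libraries differed from each other more than those of any other group for all markers but Stab1, and every comparison with sham rests on them. For those 7 markers the highest sham library was at least 9.99 times the lowest, against at most 5.68 times within any other group. Mrc1 was at 2.07, 30.6 and 78.0 CPM in the sham libraries, a span of 37.6 times. Pf4 was at 1.5, 50.7 and 76.7 CPM, and Cbr2 at 0.606, 9.49 and 22.0. Sham replicate 1 was thus the lowest for each of these genes and replicate 3 the highest.

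Lyve1 was at 0.0319, 3.23 and 24.1 CPM and Cd163 at 0.0319, 3.45 and 9.35. In sham replicate 1 each of them had 1 count, which is under the floor of 3 counts, and set against that floor replicate 3 was at least 252-fold higher for Lyve1 and at least 97.8-fold higher for Cd163. Folr2 was at 0.446, 3.45 and 4.70 CPM and Siglec1 at 0.287, 0.569 and 2.87, spans of 10.5 and 9.99 times. Stab1, the marker with the highest level in this gate, spanned only 1.48 times, at 144, 117 and 174 CPM. The markers other than Stab1 summed to 4.97, 101.4 and 217.7 CPM in the 3 sham libraries. In bulk samples such as these, fewer cells of a type and less RNA per cell cannot be told apart.

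Other genes spread in the same way between the sham libraries. With a bar of 10 times, set after the values were seen, sham replicate 3 exceeded replicate 1 for 6 of the 8 markers (75.0%), for 13 of 22 other genes listed for border macrophages (59.1%) and for 260 of 23815 genes tested (1.09%). The 13 included Ms4a7, at 0.319, 11.7 and 17.5 CPM, and F13a1, the A subunit of coagulation factor XIII, at 0.351, 9.38 and 21.5. Markers of blood cells moved too. Of 12 neutrophil markers 9 passed that bar, with S100a8 at 0.829, 33.8 and 249 CPM, and so did 6 of 12 monocyte markers. Summed neutrophil markers stood at 160, 249 and 816 CPM, and summed monocyte markers at 8.10, 9.98 and 58.7. None of the 12 microglial markers passed the bar, with P2ry12 at 4021, 3953 and 4021 CPM and Tmem119 at 445, 443 and 639. The part of these other cell types in the spread of the border markers was not tested.

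**Figure D3:**
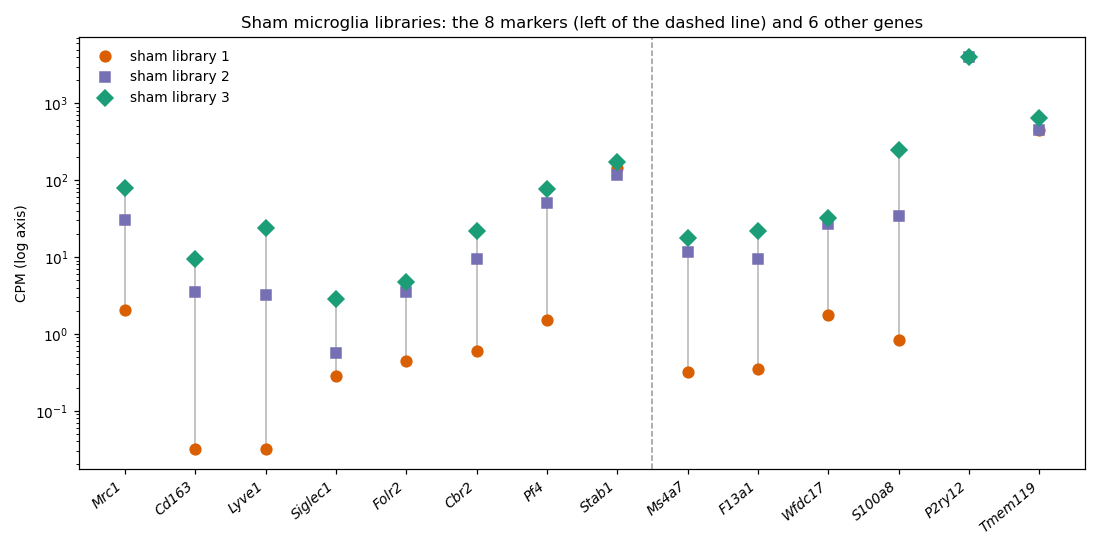
Levels in the 3 sham libraries, in CPM on a log axis, of the 8 markers and of Ms4a7, F13a1, Wfdc17, S100a8, P2ry12 and Tmem119, with 1 point per library and the points of Cd163 and Lyve1 in replicate 1 standing for 1 count each. The microglial P2ry12 stays between 3953 and 4021 CPM while most border markers and S100a8 differ by over 10 times between sham replicates 1 and 3.

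The markers varied together over the microglia libraries to unequal degrees. Over the 21 pairs of markers other than Stab1, Pearson's r of log2 CPM was between 0.506 and 0.943 in 15 libraries, with a median of 0.772. Without sham replicate 1 it was between -0.02 and 0.836 (median 0.647), and for deviations from the group means without any sham library, over 12 libraries, between -0.288 and 0.896 (median 0.487). The lowest of these pairs without sham replicate 1 was that of Cd163 and Pf4. Among Mrc1, Cd163, Lyve1 and Cbr2, the pairs with the highest values, chosen after these were seen, r was between 0.926 and 0.943 over 15 libraries. Without sham replicate 1 it was between 0.699 and 0.836 over 14 libraries. Stab1 went with the other markers at an r of only 0.203 to 0.375 in the 15 libraries. These values are a description over libraries that share groups and normalization.

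Injury at 1 d was compared with sham in microglia of each genotype, both comparisons sharing the sham libraries. No border marker was called in either genotype by edgeR's quasi-likelihood test, with a threshold of 1 on the absolute log2 scale and of 0.05 on the Benjamini-Hochberg adjusted p. Of all genes tested 12.3% were called for WT mice and 6.64% for Fgg γ390–396A mice. None of the 8 had an unadjusted p under 0.05 in either comparison, against 6592 and 4861 of all genes, and DESeq2 called 0 as well. Pf4 was at 111.5, 85.1 and 161.8 CPM in WT microglia at 1 d, all above the sham libraries, with a log2 fold change of 1.48 ± 0.71 (SE, 95% interval -0.02 to 2.97, adjusted p = 0.19). It was the only 1 of the 8 markers free of overlap and higher, as 16.8% of all genes were. In Fgg γ390–396A microglia it was at 70.8, 83.7 and 59.3 CPM, and only replicate 2 lay above the highest sham library (76.7 CPM). There 0 of the 8 markers were free of overlap against 29% of all genes.

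The hemoglobin receptor Cd163 was at 2.33, 1.09 and 1.02 CPM in WT microglia at 1 d and at 2.43, 1.13 and 2.01 in Fgg γ390–396A microglia. All 6 values lay between sham replicates 1 and 2. Its log2 fold changes against sham were -1.54 (95% interval -3.39 to 0.31) and -1.20, with adjusted p = 0.27 and 0.46. Without sham replicate 1 the WT value was -2.12 and was called (adjusted p = 0.023), and without sham replicate 3 it was -0.23 (adjusted p = 0.99). Stab1 was at 119, 149 and 206 CPM in WT microglia, and the interval of its log2 difference from sham, -0.51 to 0.76, stayed within 1 on either side. Lyve1, at 7.48, 2.82 and 4.18 CPM in WT microglia and 8.74, 4.10 and 5.95 in Fgg γ390–396A microglia, lay within the sham range in every library. Over the 8 markers the median log2 fold change was -0.13 for WT and -0.19 for Fgg γ390–396A microglia, against 0 over all genes.

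Other genes of the same kind were called at that time. Of 22 other border macrophage genes, 4 were called higher and 2 lower in WT microglia at 1 d, and 3 and 1 in Fgg γ390–396A microglia. They included the matrix protein gene Tgfbi (log2 fold change 2.96) and the endocytic adaptor Dab2 (3.94), which rose, and the transcription factor Maf (-1.80), which fell. Among 11 other scavenger and endocytic receptors tested, 4 were called higher and 0 lower in each genotype. The scavenger receptors Msr1 and Marco rose in WT microglia by 6.47 and 8.96 on the log2 scale, and in Fgg γ390–396A microglia by 5.53 and 7.85. The Marco estimates were imprecise, with 95% intervals of 5.67 to 12.3 and 4.63 to 11.1, against 5.33 to 7.61 and 4.44 to 6.63 for Msr1. The microglial list moved the other way, with 8 of 12 genes called lower for WT mice and 6 for Fgg γ390–396A mice.

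At 7 d the folate receptor rose. Folr2 was at 14.2, 18.3 and 19 CPM in WT microglia at 7 d against 0.446, 3.45 and 4.70 in sham, and no library of one group reached the other. Its log2 fold change was 2.58 ± 0.61 (SE, 95% interval 1.30 to 3.85), or 5.98 times, with adjusted p = 0.023 in edgeR's quasi-likelihood test. It was the only border marker called of 8, in a comparison that called 2.02% of all genes. Siglec1 was at 5.11, 7.64 and 8.12 CPM, also above every sham library, with a log2 fold change of 2.46 ± 0.67 (SE) that missed the threshold (adjusted p = 0.055). Stab1 was at 192.8, 184.5 and 181.0 CPM and lay just above sham, with a difference of only 0.36 (adjusted p = 0.70). These 3 markers were free of overlap and higher, where 10.5% of all genes were.

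The calls against sham moved with single libraries. The Folr2 call was lost without sham replicate 1 (2.07, adjusted p = 0.058), sham replicate 2 (adjusted p = 0.072), WT 7 d replicate 2 (0.063) or WT 7 d replicate 3 (0.070). Siglec1 was called without sham replicate 3 (4.02, adjusted p = 0.0025) and also with DESeq2 (adjusted p = 0.0046).

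In Fgg γ390–396A microglia at 7 d Folr2 was at 7.48, 8.08 and 10.3 CPM and Siglec1 at 3.15, 4.59 and 4.45. Both lay above all sham libraries, as 8.45% of all genes did. Their log2 fold changes were 1.58 (95% interval 0.35 to 2.82, adjusted p = 0.42) and 1.69 (0.32 to 3.05, adjusted p = 0.47). No marker was called by edgeR or DESeq2 in this comparison, in which edgeR called 0.663% of all genes. An unadjusted p under 0.05 was found for 2 of the 8, against 1808 of 23815 genes tested. Without sham replicate 3 Siglec1 was called (3.25, adjusted p = 0.022). Mrc1 in microglia at 7 d was at 33.1, 56.8 and 65.6 CPM for WT mice and 24.2, 49.5 and 52.7 for Fgg γ390–396A mice, inside the sham span. The same held for Lyve1, at 8.17, 4.27 and 11.4 CPM for WT mice and 4.15, 11.6 and 11.8 for Fgg γ390–396A mice. Among other border macrophage genes the lipid carrier Apoe was called higher in both genotypes (3.71 and 2.73 on the log2 scale) and Aoah, an enzyme that inactivates lipopolysaccharide, in WT mice (2.24). No others of the 22 were called at 7 d.

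**Figure D4:**
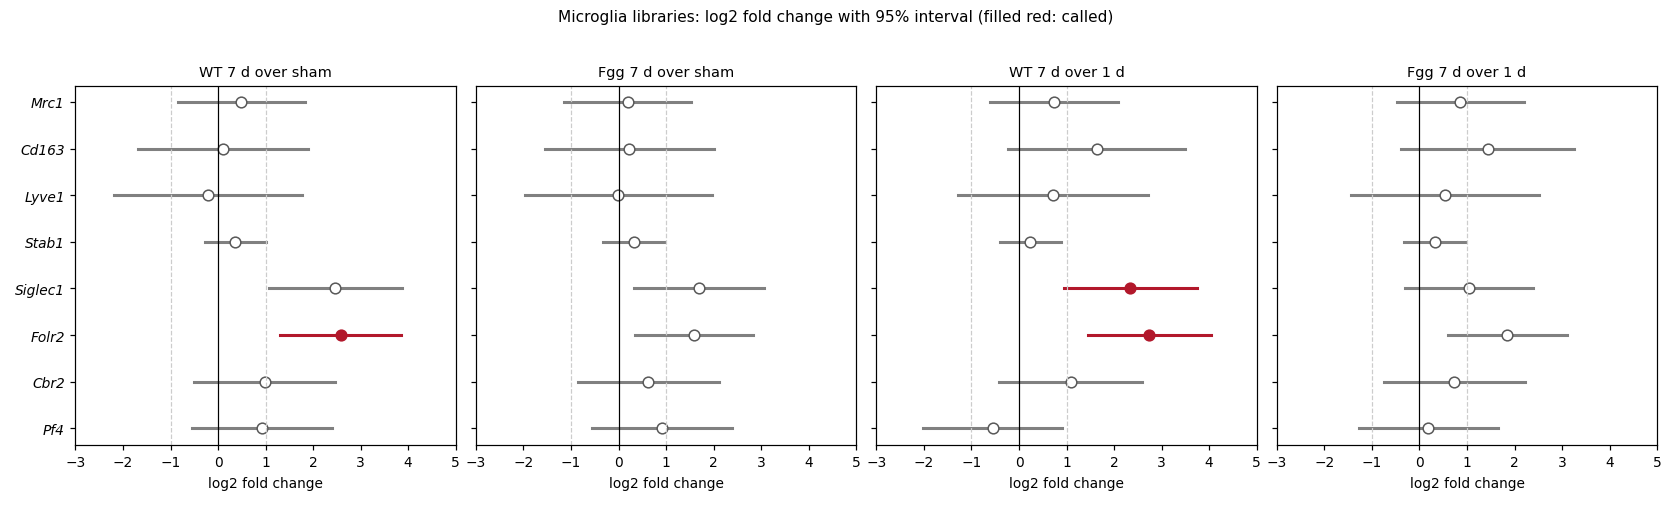
Log2 fold change of each marker with its 95% interval in 4 comparisons of microglia, 7 d against sham and 7 d against 1 d in each genotype, where the solid line at 0 is no difference, dashed lines mark -1 and 1, and filled red points were called. In WT mice the Folr2 estimate is 2.58 against sham and 2.74 against 1 d, and in Fgg γ390–396A mice it is 1.58 and 1.85.

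The comparison of 7 d with 1 d does not use the sham libraries. In WT microglia Folr2 went from 2.94, 1.81 and 2.97 CPM at 1 d to 14.2, 18.3 and 19 at 7 d, with no overlap. The log2 fold change was 2.74 ± 0.62 (SE, 95% interval 1.45 to 4.03), or 6.68 times, with adjusted p = 0.0057 in edgeR's quasi-likelihood test. This call was kept in every alternative fit and with each library left out. Siglec1 went from 2.25, 1.05 and 0.819 CPM to 5.11, 7.64 and 8.12, again with no overlap. Its log2 fold change was 2.34 ± 0.67 (SE), or 5.06 times, with adjusted p = 0.028. That call was lost without WT 1 d replicate 2 (adjusted p = 0.13) or 3 (0.15) and without WT 7 d replicate 2 (0.072) or 3 (0.079). Folr2 and Siglec1 were the 2 of 8 markers called, both higher, in a comparison that called 7.06% of all genes and 2.68% higher.

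Cd163 and Cbr2 also lay higher at 7 d in every WT library but did not pass the test in the main fit. Both were called with compared groups only (1.61, adjusted p = 0.046 for Cd163 and 1.06, adjusted p = 0.027 for Cbr2). Cd163 was at 3.78, 3.86 and 6.15 CPM at 7 d (log2 fold change 1.64, 95% interval -0.22 to 3.49, adjusted p = 0.29). Cbr2 went from 10.8, 11 and 8.16 CPM to 18.8, 16.3 and 28.4 (1.08, 95% interval -0.41 to 2.58, adjusted p = 0.39). In all, 4 of the 8 markers were free of overlap and higher, against 15.2% of all genes. Pf4 had the opposite sign in WT microglia, -0.55 on the log2 scale, at 57.5, 100.3 and 87.0 CPM at 7 d. The median over the markers was 0.91, against 0 over all genes.

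In Fgg γ390–396A microglia Folr2 was at 3.88, 2.49 and 0.683 CPM at 1 d and all 3 libraries at 7 d were higher (log2 fold change 1.85 ± 0.60 (SE), 95% interval 0.61 to 3.09, adjusted p = 0.081). No marker was called there by edgeR, which called 3.54% of all genes, and Folr2 was the 1 marker of 8 free of overlap and higher, against 13.3% of all genes. Folr2 alone of the 8 had an unadjusted p under 0.05, against 3894 of 23815 genes tested. It was also the 1 marker called by DESeq2. Siglec1 was at 1.95, 0.831 and 3.17 CPM at 1 d, and its change by 7 d was 1.04 (95% interval -0.30 to 2.38, adjusted p = 0.44). The difference between genotypes in these changes with time was tested directly. It was -0.89 for Folr2 (95% interval -2.61 to 0.83) and -1.30 for Siglec1 (-3.19 to 0.60), both with adjusted p = 1. No marker and 0% of all genes passed in that test by edgeR, and DESeq2 called 0 markers. No marker had an unadjusted p under 0.05, against 653 of 23815 genes tested. Around these markers, Msr1 fell between 1 d and 7 d in both genotypes, with log2 fold changes of -4.77 for WT and -4.84 for Fgg γ390–396A microglia. Apoe rose by 5.65 and 3.87. Of the 22 other border macrophage genes 2 were called higher and 3 lower in WT mice, and 1 and 3 in Fgg γ390–396A mice. Of the 11 other scavenger receptors, 0 were called higher and 2 lower in each genotype.

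Between genotypes no border marker was called in microglia at either time, with thresholds of 1 on the absolute log2 scale and 0.1 on the adjusted p. At 1 d 0.0546% of all genes were called, and at 7 d 0.0378%. No marker had an unadjusted p under 0.05 at 1 d or 7 d, against 1208 and 795 of 23815 genes tested. DESeq2 called 0 markers. At 1 d the Pf4 values of Fgg γ390–396A mice (70.8, 83.7 and 59.3 CPM) were below those of WT mice (111.5, 85.1 and 161.8). The log2 difference was -0.75 (95% interval -2.21 to 0.72, adjusted p = 0.95). Pf4 was the 1 marker of 8 free of overlap and lower at 1 d, against 2.99% of all genes. At 7 d Folr2 (7.48, 8.08 and 10.3 against 14.2, 18.3 and 19 CPM) and Siglec1 (3.15, 4.59 and 4.45 against 5.11, 7.64 and 8.12 CPM) were lower in every Fgg γ390–396A library. The log2 differences were -1.0 ± 0.58 (SE, 95% interval -2.20 to 0.21) and -0.78 (95% interval -2.10 to 0.54), each with adjusted p = 1. These 2 of 8 markers were free of overlap and lower, against 5.28% of all genes. None of the other border macrophage genes or scavenger receptors was called between genotypes in microglia. At 7 d, 6 of the 22 border macrophage genes and 4 of the 11 scavenger receptors were free of overlap and lower, and 0 of either list higher. At 1 d, 1 of the 22 was lower and 2 higher, and 2 of the 11 were lower and 1 higher.

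In infiltrating myeloid cells at 1 d no marker was called between genotypes by edgeR, while Lyve1, Cd163 and Mrc1 lay higher in every library of Fgg γ390–396A mice than in any of WT mice. Lyve1 was at 3.36, 4.69 and 2.26 CPM for WT mice and 7.5, 37.8 and 36.5 for Fgg γ390–396A mice. Every mutant library lay above every WT library, and replicate 1 of the mutant group stood nearest to the WT values. The log2 difference was 2.99 ± 1.02 (SE), or 7.96 times with a 95% interval of 1.82 to 34.8 times, and adjusted p = 0.27. Leaving out 1 library at a time gave 2.69 to 3.49, with no call in any such fit (adjusted p = 0.15 to 0.46). DESeq2 called the gene (3.01, adjusted p = 0.050), but it called 841 of all genes here, against 108 by edgeR.

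Cd163 was at 0.968, 2.26 and 1.04 CPM for WT mice and 3.70, 9.23 and 7.22 for Fgg γ390–396A mice, again without overlap. Its log2 difference was 2.25 ± 0.90 (SE), or 4.77 times, with adjusted p = 0.36. Mrc1 was at 72.4, 54.8 and 65.5 CPM in WT mice (64.2 ± 8.89, SD, n = 3) and 96.0, 111.9 and 120.2 in Fgg γ390–396A mice (109.4 ± 12.3). That difference was only 0.77 on the log2 scale (95% interval -0.57 to 2.10, adjusted p = 0.66). Lyve1, Cd163 and Mrc1 were thus 3 of 8 markers free of overlap and higher, where 3.16% of all genes were, while 0 of 8 were called against 0.453% of all genes.

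Relative to Mrc1 in the same library, Lyve1 was at 0.0464, 0.0856 and 0.0344 for WT mice and 0.0781, 0.338 and 0.304 for Fgg γ390–396A mice. The Fgg γ390–396A range thus overlapped the WT range in replicate 1 only. Stab1 was at 64.5, 76.8 and 82.7 CPM for WT mice and 79.2, 191.5 and 87.3 for Fgg γ390–396A mice. The groups overlapped, at a log2 difference of 0.68 (95% interval 0.04 to 1.32, adjusted p = 0.41). Lyve1, Cd163 and Stab1 were the 3 of 8 markers with an unadjusted p under 0.05, against 2748 of 23815 genes tested. The enzyme Cbr2 differed by 1.11 (21.1, 14 and 8.93 against 18.5, 51.2 and 25.7 CPM), Folr2 by 1.01 (4.16, 6.16 and 2.84 against 5.06, 10.8 and 10.5) and Siglec1 by 0.68 (7.30, 4.32 and 4.10 against 11.3, 3.95 and 10.1). Each of these overlapped between genotypes and had an adjusted p of 0.50 to 0.71. The median over the 8 markers was 0.89, against 0 over all genes.

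Pf4 gave no such difference, at 1451, 927 and 1825 CPM for WT mice and 1608, 1700 and 955 for Fgg γ390–396A mice (log2 difference 0.02, 95% interval -1.44 to 1.48). Other cell types were examined beside these values. Lyve1 is also a lymphatic marker. The 12 endothelial genes, some of them lymphatic, summed to 12.5, 18.3 and 26.8 CPM in WT mice and 26.4, 20.2 and 18.3 in Fgg γ390–396A mice. Of these genes 0 were called between genotypes, 1 was free of overlap and higher, and their median log2 difference was 0.59. Among them the endothelial Cldn5 had 0 to 31 counts and the lymphatic Flt4 0 to 5 counts in the infiltrating libraries. Prox1, the lymphatic transcription factor, had 0 to 7 counts. The part of endothelial RNA in the Lyve1 values was not tested. Summed neutrophil markers stood at 8481, 3585 and 13270 CPM for WT mice and 2797, 5879 and 5254 for Fgg γ390–396A mice, and their part in the result was not tested. Summed monocyte markers were at 2193 to 2458 CPM in WT mice and 2168 to 2437 in Fgg γ390–396A mice, with 0 of 12 called between genotypes. None of the 22 other border macrophage genes was called between genotypes either. Of these, 3 were free of overlap and higher, against 3.16% of all genes, and 1 was lower (median log2 difference 0.40). Nor was any of the 11 other scavenger receptors called, of which 1 was free of overlap and higher and 3 were lower (median log2 difference -0.10).

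**Figure D5:**
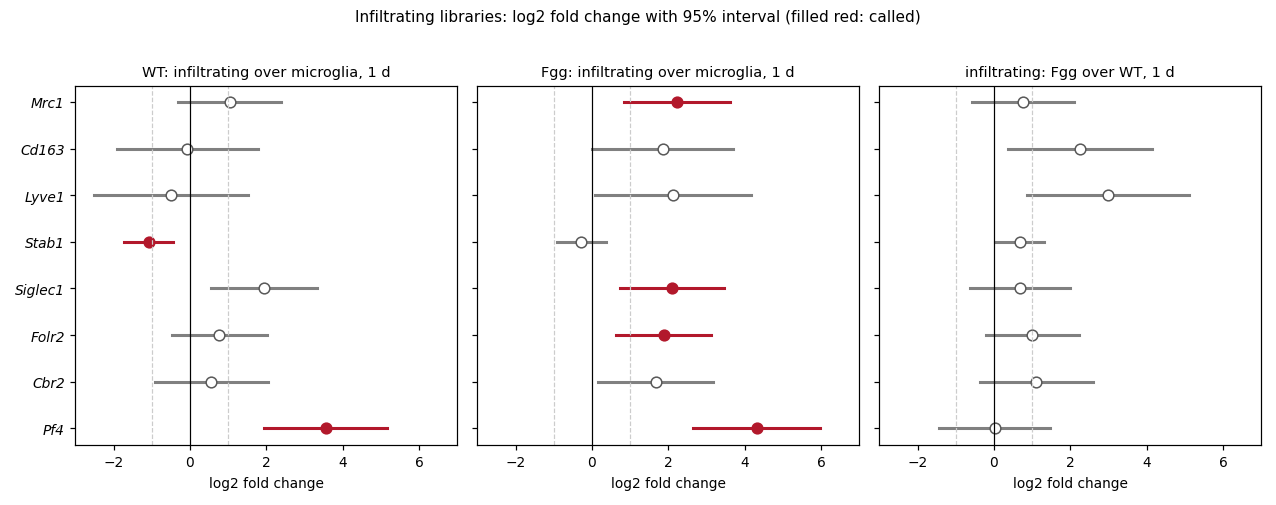
Log2 fold change of each marker with its 95% interval for infiltrating cells against microglia in WT and in Fgg γ390–396A mice at 1 d, and for Fgg γ390–396A against WT infiltrating cells, where the solid line at 0 is no difference, dashed lines mark -1 and 1, and filled red points were called. Pf4 is at 3.55 and 4.32 between gates and at 0.02 between genotypes, and Lyve1 is at 2.99 between genotypes with an interval of 0.86 to 5.12.

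Between the gates at 1 d the chemokine Pf4 had the strongest difference of the 8 markers. It was at 927 to 1825 CPM in the 6 infiltrating libraries and at 59.3 to 161.8 CPM in the 6 microglia libraries of that time. In WT mice the log2 fold change was 3.55 ± 0.77 (SE, 95% interval 1.94 to 5.16), or 11.7 times, with adjusted p = 0.0029 in edgeR's quasi-likelihood test. In Fgg γ390–396A mice it was 4.32 ± 0.80 (SE), or 19.9 times, with adjusted p = 0.00059. Leaving out 1 library at a time gave 3.32 to 3.88 and 4.17 to 4.54, and the call was kept each time.

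Platelets also store Pf4, and the platelet chemokine Ppbp moved with the gate, at 33.8 to 140.6 CPM in infiltrating cells and 0.0724 to 8.70 CPM in microglia at 1 d. Within each genotype Ppbp was lowest in the infiltrating library in which Pf4 was lowest, WT replicate 2 and Fgg γ390–396A replicate 3. Among other platelet genes, the integrin Itga2b was at 0 to 6 counts and the tubulin Tubb1 at 0 counts in all 6 infiltrating libraries. A count of 0 allows up to 3. The glycoprotein gene Gp9 was at 0.919, 0 and 1.17 CPM in WT and 0, 1.88 and 1.82 CPM in Fgg γ390–396A infiltrating cells (0 to 76 counts). It was higher in microglia at 1 d, at 4.25 to 23.8 CPM. Summed over 11 platelet genes tested, levels were 36.0 to 145.7 CPM in WT and 40.5 to 103.3 CPM in Fgg γ390–396A infiltrating cells, nearly all of it Ppbp. Of these genes 1 was called higher and 2 lower in WT infiltrating cells, and 1 and 4 in Fgg γ390–396A infiltrating cells, and their part in the Pf4 difference was not tested.

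Stab1 went the other way in WT mice. It was at 64.5, 76.8 and 82.7 CPM in infiltrating cells and 119, 149 and 206 in microglia, without overlap, and it fell by 1.08 on the log2 scale (SE 0.31, adjusted p = 0.020). That call was lost without WT 1 d microglia replicate 3 (-0.80, adjusted p = 0.13) or without infiltrating replicate 1 (0.081) or 2 (0.059). In Fgg γ390–396A mice Stab1 was at 79.2, 191.5 and 87.3 CPM against 96.1, 190.3 and 147.8, with overlap, and the log2 fold change was -0.28 (95% interval -0.92 to 0.36, adjusted p = 0.56). Pf4 and Stab1 were the 2 markers called in WT mice, 1 higher and 1 lower, in a comparison that called 11.9% of all genes.

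In Fgg γ390–396A mice 4 of 8 markers were called, all higher in infiltrating cells, where 16.7% of all genes were called and 6.96% were called higher. Mrc1 was at 96.0, 111.9 and 120.2 CPM against 28.3, 18.8 and 22.5 in microglia, without overlap, with a log2 fold change of 2.24 ± 0.67 (SE), or 4.72 times (adjusted p = 0.020). Siglec1 was at 11.3, 3.95 and 10.1 CPM against 1.95, 0.831 and 3.17 (2.09, adjusted p = 0.027). Folr2 was at 5.06, 10.8 and 10.5 CPM against 3.88, 2.49 and 0.683 (1.88, adjusted p = 0.028), and Pf4 was the fourth. In none of these 4 did the groups overlap. Mrc1 lost its call without microglia replicate 2 (adjusted p = 0.074) or 3 (0.062), and Siglec1 and Folr2 each lost theirs in 4 of 6 such fits. Folr2 also lost its call with the replicate block (adjusted p = 0.053) and with compared groups only (0.072). Other fits added calls. With compared groups only Cd163 (1.97, adjusted p = 0.039) and Lyve1 (2.24, adjusted p = 0.039) were called, and with DESeq2 Cbr2 was (1.78, adjusted p = 0.037). In all, 6 of the 8 markers were free of overlap and higher, against 12% of all genes, the other 2 being Cd163 and Cbr2.

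The same receptors were not called between gates in WT mice. Mrc1 was at 72.4, 54.8 and 65.5 CPM in infiltrating cells and 32.0, 20.3 and 41.2 in microglia (log2 fold change 1.04, adjusted p = 0.30). It was called with compared groups only (adjusted p = 0.024). Siglec1 differed by 1.93 (adjusted p = 0.054), close to the 2.09 of Fgg γ390–396A mice. It was called in 5 alternative fits that kept every library of the compared groups (adjusted p = 0.014 to 0.048). Lyve1 differed by -0.49 and Cd163 by -0.07. Mrc1, Siglec1 and Pf4 were free of overlap and higher, 3 of 8 against 13.6% of all genes, and Stab1 was the 1 lower, against 15.7%. The median over the markers was 0.66 for WT and 1.99 for Fgg γ390–396A mice, against 0 and -0.13 over all genes.

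Whether the gate difference depended on genotype was tested as an interaction, with no bar on the fold change and an adjusted p under 0.1. No marker passed, against 0.0462% of all genes, and DESeq2 called 0. None had an unadjusted p under 0.05, against 1994 of 23815 genes tested. The value for Lyve1 was 2.61 ± 1.37 (SE, 95% interval -0.24 to 5.47, adjusted p = 0.63), and for Stab1 it was 0.80 (adjusted p = 0.65). A difference between genotypes in the gate effect was therefore not shown for any of the 8. Of the 22 other border macrophage genes, 11 were called higher and 2 lower in infiltrating cells of WT mice, and 15 and 2 in those of Fgg γ390–396A mice. The lectin receptor Clec4n (5.87 and 6.4 on the log2 scale) and Wfdc17 (4.81 and 5.15) rose in both, and Gas6, a ligand of the TAM receptors, fell in both (-2.73 and -2.07). Of the 11 other scavenger receptors 1 was called higher and 2 lower in WT mice, and 2 and 2 in Fgg γ390–396A mice, with the oxidized lipoprotein receptor Olr1 higher in both (3.24 and 3.28).

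The genes whose log2 CPM was most like that of each marker over all 21 libraries were taken from 10492 protein-coding genes, as a description over libraries that share groups and scaling. Mrc1 went with the ectoenzyme gene Cd38 (Pearson's r = 0.924), Ms4a7 (0.885) and Tlr8 (0.872), and Cbr2 with Cd38 (0.884), Ccl8 (0.859) and Aoah (0.826). Cd163 went with the collectin gene Colec12 (0.861), Cd4 (0.808) and Chp2 (0.808), and Lyve1 with Ccl8 (0.825), Colec12 (0.810) and Cd38 (0.794). These 4 receptors and enzymes thus shared several neighbours, and Cd38, Ccl8, Colec12, Ms4a7 and Aoah were already on the list of other border macrophage genes, as were Apoe and Clec4n. Folr2 went with Gpx3 (0.845), Axl (0.824) and Apoe (0.823). Siglec1 went with the interferon-induced genes Oas1g (0.954), Ifi27l2a (0.928) and Oasl2 (0.918). Pf4 followed Cd93 (0.972), Cpne2 (0.964) and Clec4n (0.964), and Stab1 followed the lysosomal galactosidase Glb1 (0.874), Apbb2 (0.856) and Map3k4 (0.85). Nearest to the mean of the 8 markers were Cd38 (0.883), Ccl8 (0.864), Colec12 (0.862), Cd4 (0.829), Aoah (0.827), Gpx3 (0.798), Sdf4 (0.792), Sh3kbp1 (0.780), Use1 (0.774) and Ms4a7 (0.760).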

How the data were processed

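The authors ran nf-core/rnaseq on paired-end reads (salmon, GRCm38) and deposited expected counts per gene, with transcript length divided out within a library and no scaling between libraries. Of all values, zeros included, 39.06% were not exact whole numbers, and all were rounded to whole counts. Every column matched 1 library. Symbols came from GENCODE M21, which matched 45143 of 45706 identifiers. The 21 libraries were fitted together with edgeR 4.0.16 under R 4.3.3 (TMM, glmQLFit, glmQLFTest, Benjamini-Hochberg adjustment over 23815 genes with at least 5 counts over all libraries, prior count 2). The common biological coefficient of variation was 0.643, and 3 counts corresponded to 0.0578 to 0.1588 CPM before TMM scaling. Because transcript length was divided out, a count here is a scaled value and need not equal a read. These floors are in such scaled counts and cover counting error at most.

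All tests were two-sided. The alternatives were DESeq2 1.42.0 (Wald test), its size factors, filterByExpr, no filter, a block for the replicate number, only the compared groups in the fit, removal of ribosomal RNA genes, no bar on the fold change and leaving out each library. The method was also tested on simulated counts. P-values measure the spread between libraries of pooled mice. Replicate numbers were checked for pairing by the correlation of same-numbered libraries' deviations from their group means. In WT and Fgg γ390–396A microglia at 1 d it was 0.372, 0.151 and 0.104 for numbers 1 to 3, each over 0.1. The values printed for that comparison come from the main fit, which had no block and ignored such pairing. With the block 0 markers were called there as well. In the other comparisons not every value was over 0.1. Between gates it was 0.134, 0.166 and 0.023 in WT mice and -0.013, 0.052 and 0.01 in Fgg γ390–396A mice. The sources used here do not state whether same-numbered libraries of the 2 gates came from the same mice. The main fit treated them as independent.

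The markers and the lists of other genes were chosen with earlier results of these data known. All 8 markers were named in every comparison. From each other list the genes called with the smallest adjusted p, up to 3 in each direction, could be named, and the genes most like a marker were ranked by Pearson's r of log2 CPM among protein-coding genes with a mean of at least 1 CPM. Lineage markers named beside a result, and Ms4a7, F13a1 and S100a8 in sham, were chosen after their values were seen. Of the remaining lists, 0 of 10 lymphocyte, 0 of 8 dendritic cell, 0 of 5 red blood cell, 0 of 12 endothelial and 0 of 8 neuron and macroglia genes passed the 10-times bar between the sham libraries.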

Additional observations from a re-analysis of the deposited data

How the results depend on the processing

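Of 718 fold changes of the markers over the alternatives that kept every library of the compared groups, 8 changed sign, and none of these had been called. With the replicate block Cbr2 was at 0.0494 in WT and 0.09 in Fgg γ390–396A microglia at 1 d against sham, Lyve1 at 0.16 and 0.35 at 7 d against sham, and Cbr2 at 0.0406 between genotypes at 1 d. Cd163 between gates in WT mice was at 0.0087 with filterByExpr, 0.0069 with compared groups only and 0.0077 with DESeq2. Counts of markers called moved as follows. In WT microglia at 7 d against sham the count of 1 became 2 with filterByExpr, no filter, the replicate block or DESeq2, and 0 with compared groups only. In WT microglia at 7 d against 1 d it went from 2 to 4 with compared groups only, as it did between gates in WT mice. DESeq2 called 1 marker in place of 0 in Fgg γ390–396A microglia at 7 d against 1 d and between genotypes in infiltrating cells. Smaller moves in the count were between gates. In WT mice the call of Siglec1 was added with DESeq2 size factors, filterByExpr, the replicate block or DESeq2. In Fgg γ390–396A mice the replicate block ended the call of Folr2 (adjusted p = 0.053). Compared groups only also ended the call of Folr2 there and added those of Cd163 and Lyve1, and DESeq2 added that of Cbr2. Beyond the moves given, the replicate block changed no call on the markers. Causes were not tested.

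Leaving out 1 library at a time, the count called was 0 to 1 in WT and in Fgg γ390–396A microglia at 1 d against sham, 0 to 2 and 0 to 1 at 7 d, 1 to 2 and 0 to 1 at 7 d against 1 d, and 1 to 3 between gates in each genotype. A sign change occurred for 29 of 90 fold changes of the markers, none of them called. For WT 1 d microglia against sham the log2 range was -0.66 to 0.99 for Cbr2, -0.67 to 0.41 for Folr2, -1.51 to 1.58 for Lyve1, -0.80 to 0.94 for Mrc1, -0.43 to 1.68 for Siglec1, -0.084 to 0.29 for Stab1. For Fgg γ390–396A 1 d microglia against sham the log2 range was -0.73 to 0.99 for Cbr2, -1.78 to 0.10 for Cd163, -0.83 to 0.30 for Folr2, -1.13 to 1.96 for Lyve1, -1.23 to 0.51 for Mrc1, -0.25 to 0.22 for Stab1. For WT 7 d microglia against sham the log2 range was -0.48 to 1.41 for Cd163, -0.79 to 2.30 for Lyve1, -0.067 to 1.67 for Mrc1. For Fgg γ390–396A 7 d microglia against sham the log2 range was -0.35 to 1.53 for Cd163, -0.59 to 2.50 for Lyve1, -0.37 to 1.37 for Mrc1. For Fgg γ390–396A microglia at 7 d against 1 d the log2 range was -0.058 to 0.56 for Pf4. For genotypes in microglia at 1 d the log2 range was -0.63 to 0.31 for Cbr2, -0.67 to 0.31 for Folr2, -0.37 to 0.099 for Stab1. For genotypes in microglia at 7 d the log2 range was -0.18 to 0.51 for Cd163, -0.097 to 0.56 for Lyve1, -0.25 to 0.37 for Pf4, -0.18 to 0.14 for Stab1. For genotypes in infiltrating cells the log2 range was -0.15 to 0.26 for Pf4. For gates in WT mice the log2 range was -0.52 to 0.42 for Cd163. For gates in Fgg γ390–396A mice the log2 range was -0.80 to 0.053 for Stab1.

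The number of all genes called changed by over 1.5 times in several comparisons. Between genotypes it was 13 in microglia at 1 d (104 with DESeq2, 8 with compared groups only), 9 at 7 d (80 and 19) and 108 in infiltrating cells (841 and 7, 176 with filterByExpr, 66 with the replicate block). Against sham at 7 d it was 481 in WT mice (820 with DESeq2) and 158 in Fgg γ390–396A mice (347 with DESeq2, 85 with compared groups only). For Fgg γ390–396A microglia at 7 d against 1 d it was 844 (1343 with no bar on the fold change), and between gates in Fgg γ390–396A mice 3968 (2211 with compared groups only). The interaction with time called 0 (33 with DESeq2) and that with the gate 11 (259 with DESeq2, 0 with compared groups only). Leaving out 1 library at a time moved it further, from 6 to 89 between genotypes in microglia at 1 d, 6 to 11 at 7 d and 65 to 641 in infiltrating cells, from 283 to 486 and 74 to 179 against sham at 7 d for WT and Fgg γ390–396A microglia, from 463 to 1163 for Fgg γ390–396A microglia at 7 d against 1 d, and from 0 to 151 for the interaction with the gate. The shares of all genes printed beside the markers move with these counts. Depth limits Cd163 and Lyve1 most, with 1 count each in sham replicate 1.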
